A study of Mus musculus with 5 samples.

Results

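The replication-dependent histone genes supply the histone proteins that package newly copied DNA. They were taken here as every gene whose symbol begins with H1f1 to H1f6, H2ac, H2bc, H3c or H4c, which 69 of the 33696 listed genes did. At least 1 captured molecule was found for 67 of them, against 27071 of all genes, while *H2bc1* and *H2ac1*, which encode testis forms, stood at 0. The prefix also takes in *H1f10*, a linker histone gene that is not tied to replication, and the pseudogene *H2bc26-ps*. By family, 7 of the 69 were H1 genes, 18 H2A, 19 H2B, 12 H3 and 13 H4. The set, and the genes *H2bc11*, *H4c17*, *H2bc22* and *H2ac24* that lead it, had been picked with the difference between the *Yap5SA* and *mKate2* AAV groups in Müller glia (MG) in view, so that difference is given as a description.

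H2A, H2B, H3 and H4 form the nucleosome core, and H1 binds the linker DNA between nucleosomes. The replication-dependent genes lie in clusters, mostly have no introns, and are transcribed and processed mainly in S phase, the stage in which DNA is copied. Their mRNAs end after a short stem-loop bound by the stem-loop binding protein (SLBP) in place of a poly(A) tail. Some of these genes also give polyadenylated transcripts that run past the stem-loop, and oligo-dT capture, as used here, starts from poly(A). MG are the main glia of the retina and rarely divide in adult mammals.

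The data are single-cell counts from retinas of *Glast-CreERT2; Rosa26-Ai65* mice on C57BL/6J, 12 to 20 weeks old, males and females pooled, all given tamoxifen and EdU. Both groups received an intravitreal ShH10 AAV with a *Gfap* promoter, carrying either the fluorescent protein mKate2 or Yap5SA, a YAP that resists inactivation by phosphorylation, each joined to FlpO recombinase. The Ai65 reporter needs Cre and Flp together to make tdTomato, and tdTomato+ cells were sorted 56 days after injection from 16 pooled retinas (*mKate2*) or 21 (*Yap5SA*). Both groups therefore carried Cre, the reporter, AAV and FlpO. The study injected the same volume of each AAV but gives more genome copies per volume for *mKate2*. Vector dose therefore cannot be told apart from cargo. A library was a pool of animals, so that p-values measure only the spread between these libraries, which may be technical.

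The 4 libraries used were *mKate2* replicates 1 and 2 and *Yap5SA* replicates 1 and 3. *Yap5SA* replicate 2 was left out because it shared 1361 cell barcodes (99.78% of its own) with replicate 1, whereas other pairs shared 0 to 7. Of 10749 cells kept, 6540 (60.8%) were MG by their glial markers, 803 to 2898 per library with 7833275 to 18588061 UMIs, a UMI being 1 captured molecule. Although labelled as purified MG, the libraries also held 25 to 904 cells with microglial markers each, and *mKate2* replicate 2 and *Yap5SA* replicate 3 held 515 and 501 rods. The 5 glial gate genes summed to 16066 to 18328 UMIs per 1000000 UMIs (CPM) in MG and 212 to 460 CPM in microglia. The 10 microglial gate genes summed to 73.3 to 332 CPM in MG and 23259 to 35532 CPM in microglia. Since these genes set the gates, both contrasts were fixed in advance. A longer list of 10 glial markers, with *Sox9*, *Lhx2*, *Vim*, *Dkk3* and *Apoe* added, did not separate the types by its sum. It summed to 25471 to 32172 CPM in MG and 23719 to 33813 CPM in microglia. The gate genes, at 212 to 460 CPM, held little of the microglial sum, and the added genes were not read singly. Replicates 1 of both groups were processed with Cell Ranger 8.0.0 and the other pair with 9.0.1 according to the file headers, so the version was balanced between the groups. Median UMIs per MG were 6194.5 and 10778 in the 8.0.0 pair and 2918.5 and 2920 in the 9.0.1 pair.

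All but the 2 genes on chromosome 6 lie in 4 clusters of the mouse genome (build GRCm39). Chromosome 13 carries 23 members between 21899933 and 22227846 and 31 members between 23715220 and 24118834, chromosome 3 carries 10 between 96127181 and 96177448, and chromosome 11 carries 3 between 58838848 and 58847656. The genes *H2bc22* (chr13:21971631-21973391), *H4c17* (chr13:21995916-21996317), *H2ac24* (chr13:22017196-22017677, minus strand) and *H2bc11* (chr13:22227384-22227846) all lie in the first of these. *H4c16* and *H1f10* are alone on chromosome 6. Overlapping annotation was found for 7 members, among them *H4c4* and *H1f4* with *H2bc6* and *H2bc4* with *H2ac6*.

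The histone stem-loop was searched as 6 bases that pair with 6 bases across a loop of 4, with GG at the start, CC at the end and T at positions 1 and 3 of the loop, within 150 bases after the stop codon. It was found in 66 of the 69 members and in 78 of 21596 other protein-coding genes (0.361%). It started 21 to 58 bases after the stop codon, with a median of 30. The stem-loops of genes the results turn on are given in sense orientation, with the paired arms in capitals and 5 flanking bases on either side, so that the change of arm between families and the few unusual loops can be read. They lie at chr13:22227808-22227823 (*H2bc11*), chr13:21972093-21972108 (*H2bc22*), chr13:22017199-22017214 (*H2ac24*, minus strand), chr13:23868630-23868645 (*H2bc4*), chr13:21996299-21996314 (*H4c17*), chr13:23944783-23944798 (*H4c1*, minus strand) and chr13:23720059-23720074 (*H3c8*) of GRCm39, flanks not counted.
H2bc11: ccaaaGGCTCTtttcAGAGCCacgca
H2bc22: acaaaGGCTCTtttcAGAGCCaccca
H2ac24: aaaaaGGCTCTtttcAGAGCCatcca
H2bc4: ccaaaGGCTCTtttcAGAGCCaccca
H4c17: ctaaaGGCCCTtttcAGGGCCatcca
H4c1: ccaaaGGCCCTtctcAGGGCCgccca
H3c8: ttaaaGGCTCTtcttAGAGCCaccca

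The left arm of *H2bc11* above was shared by 53 members, which were all the H1, H2A, H2B and H3 genes with a stem-loop. The left arm of *H4c17* was found in 11 H4 genes, and the remaining 2 H4 genes carried GGTCCT. The loop TTTC was the commonest, in 52 members, followed by TTTA in 9 and TTTT in 3, and the loops of *H4c1* and *H3c8* occurred once each. None was found in *H1f10*, *H2bc21* (which encodes the H2BE variant of neurons) or *H2ac22*.

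Members differed in how far the gene annotation runs past the loop. In 28 the annotated transcript extended at least 100 bases beyond it (here "extended"), and 3 had no stem-loop. In 38 it ended nearer or before the loop (here "short", 36 of them with a UMI). The annotation of *H1f5*, *H4c12* and *H2ac10*, among others, stopped before the loop. Distances were taken along the genome, introns included. H2A genes were mostly short (14 of 18), whereas H4 genes were divided into 7 extended and 6 short and H2B genes into 9 and 9. *H2bc4* ran 9518 bases past its stem-loop and *H2bc22* 1283 bases, while *H2bc11*, *H4c17* and *H2ac24* ended 23, 3 and 3 bases past theirs. For 5 pairs (*H2ac18* and *H2ac19*, *H2ac23* and *H2ac24*, *H2bc23* and *H2bc24*, *H3c14* and *H3c15*, *H4c17* and *H4c18*) the 90 bases up to the end of the loop were identical, so 3′ reads from there cannot be assigned to 1 member of the pair and the values of those 10 genes are uncertain.

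Promoters were available for 59 members in RefSeq (build GRCm38.p6), from 250 bases before to 50 bases after the gene start. The CCAAT box, read on both strands (ATTGG on the other), was present in 50 of the 59 (84.7%) and in 41.1% of all 27025 genes. It was found in 47 of 48 H1, H2A, H2B and H3 genes but in 3 of 11 H4 genes (27.3%). Windows of 200 bases from genes that lead the set are shown to contrast an H2B gene pair with an H4 gene, all on the plus strand, with each CCAAT or ATTGG in capitals. They cover chr13:22043048-22043247 (*H2bc11*, 4 matches), chr13:21787338-21787537 (*H2bc22*, 3 matches) and chr13:21811596-21811795 (*H4c17*, 0 matches) of GRCm38.p6.
H2bc11: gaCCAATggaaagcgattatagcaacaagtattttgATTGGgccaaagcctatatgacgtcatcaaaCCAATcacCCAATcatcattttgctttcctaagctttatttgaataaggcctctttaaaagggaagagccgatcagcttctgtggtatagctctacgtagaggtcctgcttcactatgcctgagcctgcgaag
H2bc22: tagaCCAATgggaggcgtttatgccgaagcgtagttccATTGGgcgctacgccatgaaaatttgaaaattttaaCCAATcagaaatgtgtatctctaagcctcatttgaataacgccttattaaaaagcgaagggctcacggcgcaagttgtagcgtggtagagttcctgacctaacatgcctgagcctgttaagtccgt
H4c17: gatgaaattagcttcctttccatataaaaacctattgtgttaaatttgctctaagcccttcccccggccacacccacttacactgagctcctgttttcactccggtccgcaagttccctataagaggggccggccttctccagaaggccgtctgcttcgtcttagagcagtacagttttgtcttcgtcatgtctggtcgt

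Other motifs, also searched on both strands, were unevenly spread over the families. The TATA box form TATAAA was present in 34 of 59 members (57.6%) against 15.7% of all genes. The octamer ATTTGCAT, the site known for OCT1 in H2B promoters, was present in 7 of 14 H2B and 6 of 17 H2A genes and in 0 of the 28 other members, against 1.97% of all genes. AAACACA, described for H1 promoters, was present in 5 of 7 H1 genes and 9 of 59 members, against 8.22% of all genes. These are matches of letters and were not tested as sites.

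In MG, a few members held most of the histone UMIs. *H2bc4*, *H1f4*, *H4c4*, *H2bc27* and *H2ac25*, all extended, held 72.0% and 70.1% of the members' UMIs in the *mKate2* libraries and 56.5% and 68.3% in the *Yap5SA* libraries. Since a UMI marks 1 captured 3′ end, CPM is not scaled by length here. *H2bc4*, an H2B gene, stood at 423 and 403 CPM in *mKate2* replicates 1 and 2 and at 527 and 460 CPM in *Yap5SA* replicates 1 and 3. The linker histone gene *H1f4* stood at 208, 210, 170 and 234 CPM in the same order. *H4c4* stood at 140, 166, 153 and 182 CPM. The level of *H2bc4* was above that of *H1f4* in every library, and *H1f4* was above *H4c4* in each. *H2bc27* stood at 163, 122, 190 and 146 CPM, and its order with *H4c4* differed between libraries. *H2ac25*, which neighbours *H2bc27* on chromosome 11, stood at 86.8, 54.5, 101 and 87.1 CPM and was the lowest of the 5 in each library.

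Extended members held 88.1%, 90.3%, 80.2% and 88.7% of the histone UMIs of MG in the same order, and short members 10.7%, 7.15%, 18.4% and 9.49%. The median over members of the mean level was 8.17 CPM for extended and 2.26 CPM for short genes. Of the 10 members with the most UMIs, 9 were extended and 1, *H4c8*, was short. The part of the annotated ends in these levels was not tested. The mean lay over 10 CPM for 18 members and under 1 CPM for 15. The plot of all members by library shows this range.

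**Figure D1:**
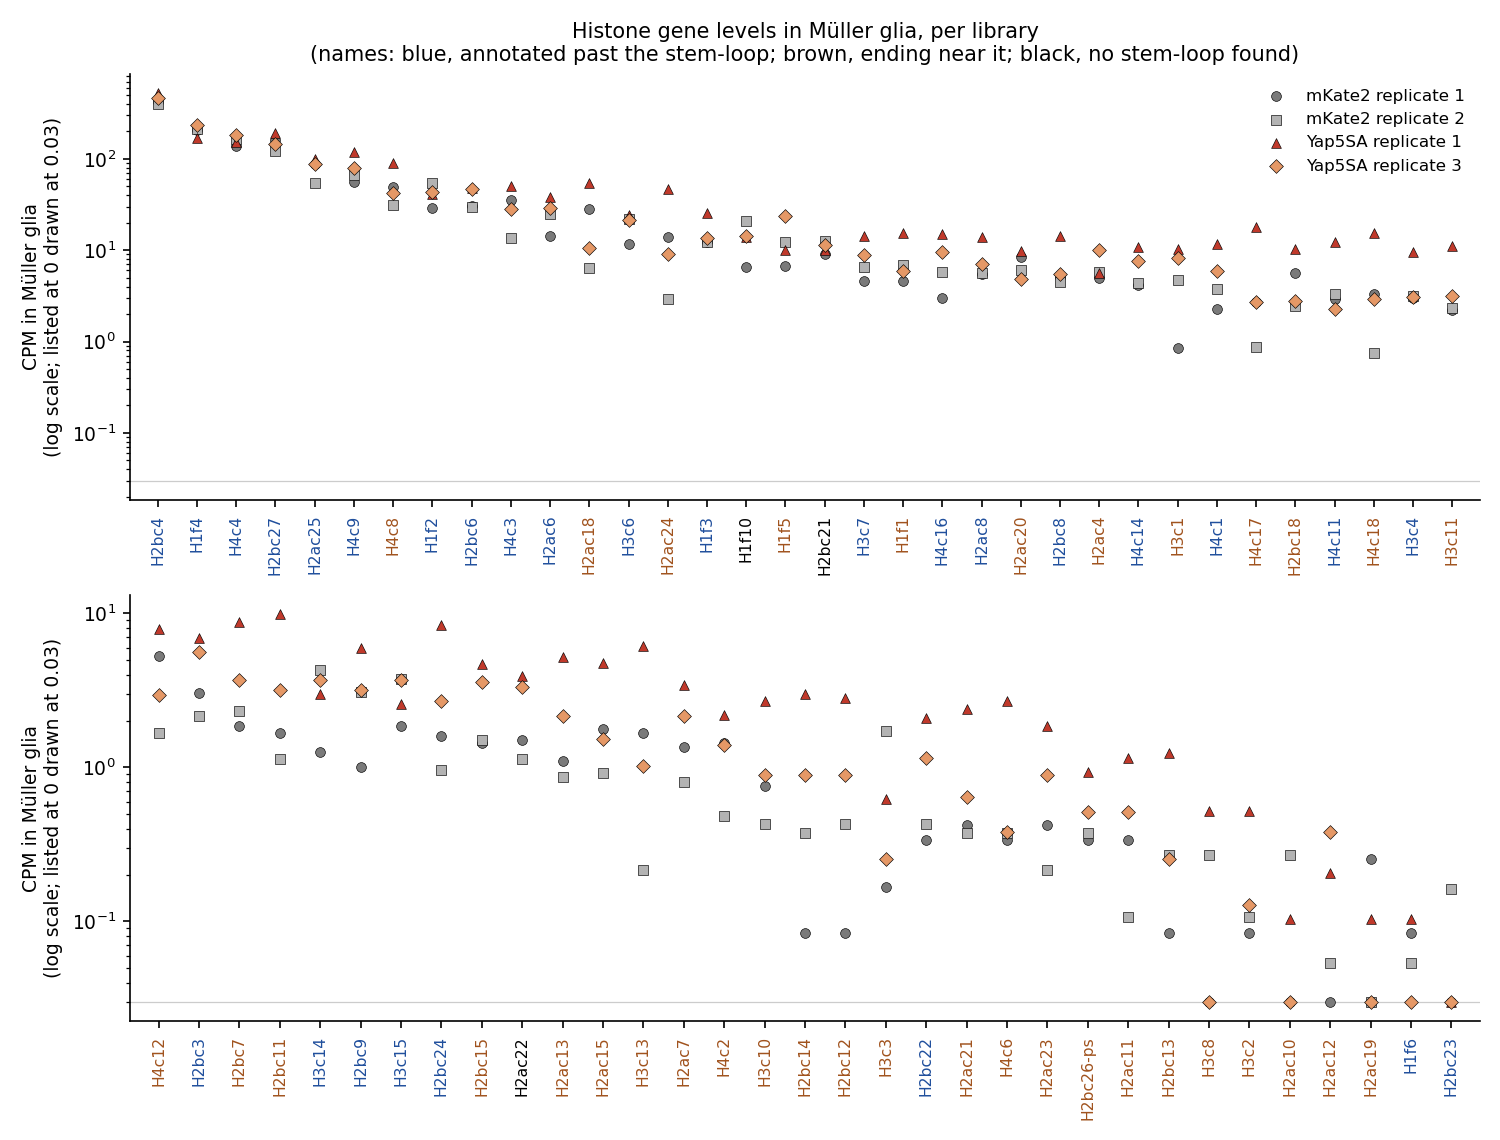
Level of each of the 67 members in MG, in CPM on a log scale, with 1 point per library (grey, *mKate2* AAV; red and orange, *Yap5SA* AAV) and members ordered by their UMIs over the 4 libraries; names in blue are extended, in brown short, in black without a stem-loop. *H2bc4* leads at 403 to 527 CPM, and *Yap5SA* replicate 1 (red) is the highest point for 53 of the 67 members.

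Most MG held histone UMIs. After thinning each cell to 1000 UMIs, 69.8% and 70.6% of MG in the *mKate2* libraries and 76.7% and 75.7% in the *Yap5SA* libraries held at least 1 member UMI, compared with 68.2% and 68.3% of rods in *mKate2* replicate 2 and *Yap5SA* replicate 3 and 24.4% to 52% of microglia. Unthinned, the shares of MG were 94.1%, 90.9%, 97.0% and 92.5%, at median depths of 6194.5, 2918.5, 10778 and 2920 UMIs. The part of free RNA in these shares was not tested. The 5% of MG with the most member UMIs held 19.6%, 36.8%, 19.3% and 34.3% of them. At least 3 of 7 cell cycle markers (*Mki67*, *Top2a*, *Ccna2*, *Cdk1*, *Rrm2*, *Ube2c*, *Birc5*) were detected in 2 of the 6540 MG, both in *mKate2* replicate 2. Those markers together stood at 2.27 and 8.45 CPM in MG of the *mKate2* libraries and at 6.34 and 3.70 CPM in those of the *Yap5SA* libraries.

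The study compared MG after *Yap5SA* AAV with MG after *mKate2* AAV to describe the state of cells descended from MG that had received YAP5SA, a protein that the study's stainings no longer found at this time. It first left out its larger cell cluster, which it read as stressed by dissociation. No such cluster was left out here, so the MG summed are not the study's set. Summed over the 67 members, the level was 1416 and 1364 CPM in the *mKate2* libraries and 2020 and 1624 CPM in the *Yap5SA* libraries, so the groups did not overlap. The means were 1390 ± 37.1 and 1822 ± 280 CPM (SD, n = 2 libraries each), a ratio of 1.31. In sums over cells such as these, fewer cells with a transcript and less of it per cell cannot be told apart. Within Cell Ranger versions the ratio was 1.43 for the 8.0.0 pair and 1.19 for the 9.0.1 pair. By family, the ratio of means was 1.05 for H1, 1.26 for H2B, 1.46 for H4, 1.65 for H2A and 1.80 for H3. The 5 members with the most UMIs had a ratio of 1.14 and the other 62 a ratio of 1.73.

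The sum of short members was 151 and 97.5 CPM in the *mKate2* libraries and 372 and 154 CPM in the *Yap5SA* libraries, a ratio of 2.12, with 2.47 and 1.58 within the versions. The sum of extended members was 1248, 1231, 1619 and 1441 CPM, a ratio of 1.23. Without the 5 members with the most UMIs, which are all extended, the ratio of extended members was 1.61, with 2.10 and 1.20 within the versions. Both *Yap5SA* libraries lay above both *mKate2* libraries for 16 of 28 extended members (57.1%) and 17 of 36 short members (47.2%), as for 12.2% of all 24433 genes with a UMI in MG. The difference between the classes was not tested. For short members *Yap5SA* replicate 1 stood apart from the other 3 libraries, while replicate 3 lay next to *mKate2* replicate 1. In MG split by depth (1000 to 4000, 4000 to 16000, and from 16000 UMIs), the short members' sum was 368 to 386 CPM in *Yap5SA* replicate 1, 101 to 211 CPM in replicate 3, 145 to 177 CPM in *mKate2* replicate 1 and 77.2 to 112 CPM in replicate 2.

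Of the 4 leading genes, *H2ac24* had a mean over 10 CPM and the other 3 were lower. *H2bc11* stood at 1.68 and 1.13 CPM in the *mKate2* libraries and at 9.87 and 3.19 CPM in the *Yap5SA* libraries. *H2bc22* stood at 0.337 and 0.430 against 2.08 and 1.15 CPM, from only 4 and 8 against 20 and 9 UMIs. For both H2B genes the groups did not overlap. *H4c17* stood at 2.69 and 0.861 against 17.9 and 2.68 CPM, and *H2ac24* at 13.8 and 2.91 against 47.4 and 9.06 CPM. For *H4c17* and *H2ac24* the value of *Yap5SA* replicate 3 was below that of *mKate2* replicate 1, so the groups overlapped. *H1f10*, which has no stem-loop, stood at 6.48 and 21.0 against 13.9 and 14.2 CPM, with both *Yap5SA* values between the *mKate2* ones.

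Over all 67 members, both *Yap5SA* libraries lay above both *mKate2* libraries for 34, as did 12.2% of all genes, and for 0 they lay below, as did 4.68% of genes. *Yap5SA* replicate 1 was the highest library for 53 members (26.8% of all genes). Without it, replicate 3 lay above both *mKate2* libraries for 38 members (31.7% of all genes) and below both for 3 (16.8%). Within both Cell Ranger versions, *Yap5SA* was higher for 49 members (23.8% of all genes) and lower for 0 (10.5%). In edgeR's quasi-likelihood test, 50 of the 67 passed the filter on low counts and 0 of them were called at an adjusted p under 0.05, as were 0 (0%) of 15285 genes. At an unadjusted p under 0.05 the test held 3 members and 30 genes, and with the Cell Ranger version as a term 9 members and 151 genes, again with 0 called. DESeq2 also called 0 genes and held 5 members and 52 genes at an unadjusted p under 0.05. Since the members were picked with this difference in view, their counts beside all genes are descriptions and no test of the set.

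The other gene lists held 0 calls as well. Of the replication-independent histone genes, which include *H2az1*, *H3f3b* and *H1f10*, 0 of 11 were called and 1 had a positive log2 fold change. Of the genes for histone mRNA processing, 0 of 15 were called and 4 were positive, with *Slbp* at 31.7 and 48.2 CPM against 47.5 and 49.3 CPM. Of the S phase and cell cycle genes, 0 of 19 were called and 7 were positive. The median log2 fold change over all genes was -0.03, and 7001 of 15285 were positive. For the replication-independent histones and the S phase genes these signs hung on *mKate2* replicate 2. Without it 9 of 11 and 14 of 19 were positive. Of the processing genes 4 of 15 were positive without *mKate2* replicate 2, and 10 of 15 without *mKate2* replicate 1.

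Markers of other cell types also differed between the MG sums. The 4 pigment epithelium markers summed to 18.9 and 534 CPM in MG of the *mKate2* libraries and to 215 and 4232 CPM in those of the *Yap5SA* libraries, and so were higher with *Yap5SA* within both Cell Ranger versions. The 7 rod markers summed to 68.8 and 649 CPM against 7.06 and 1252 CPM. Cone markers stood at 0.416 to 70.0 CPM, bipolar markers at 18.7 to 57.8 CPM, amacrine markers at 2.02 to 15.8 CPM and endothelial markers at 504 to 837 CPM. In MG without the cells that pass another gate, the summed level of all members was 1421 and 1371 CPM against 2029 and 1659 CPM. The part of these markers in the MG values was otherwise not tested.

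The level in the other cells of the same libraries was read beside that of MG. In microglia with no cell cycle marker, the short members' sum was 91.7 and 20.2 CPM in the *mKate2* libraries and 269 and 27.7 CPM in the *Yap5SA* libraries, so *Yap5SA* replicate 1 was highest there as well. For all members, *Yap5SA* replicate 3 lay above *mKate2* replicate 2 in rods (1466 and 1213 CPM), cones (1121 and 844 CPM), bipolar cells (1011 and 796 CPM) and amacrine cells (780 and 590 CPM). In each of these 4 cell types the 95% counting intervals of both libraries did not overlap. In microglia they stood at 308 and 510 CPM, and at 296 and 306 CPM in those with no cell cycle marker. The part of a library-wide difference in the MG values was not tested.

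**Figure D2:**
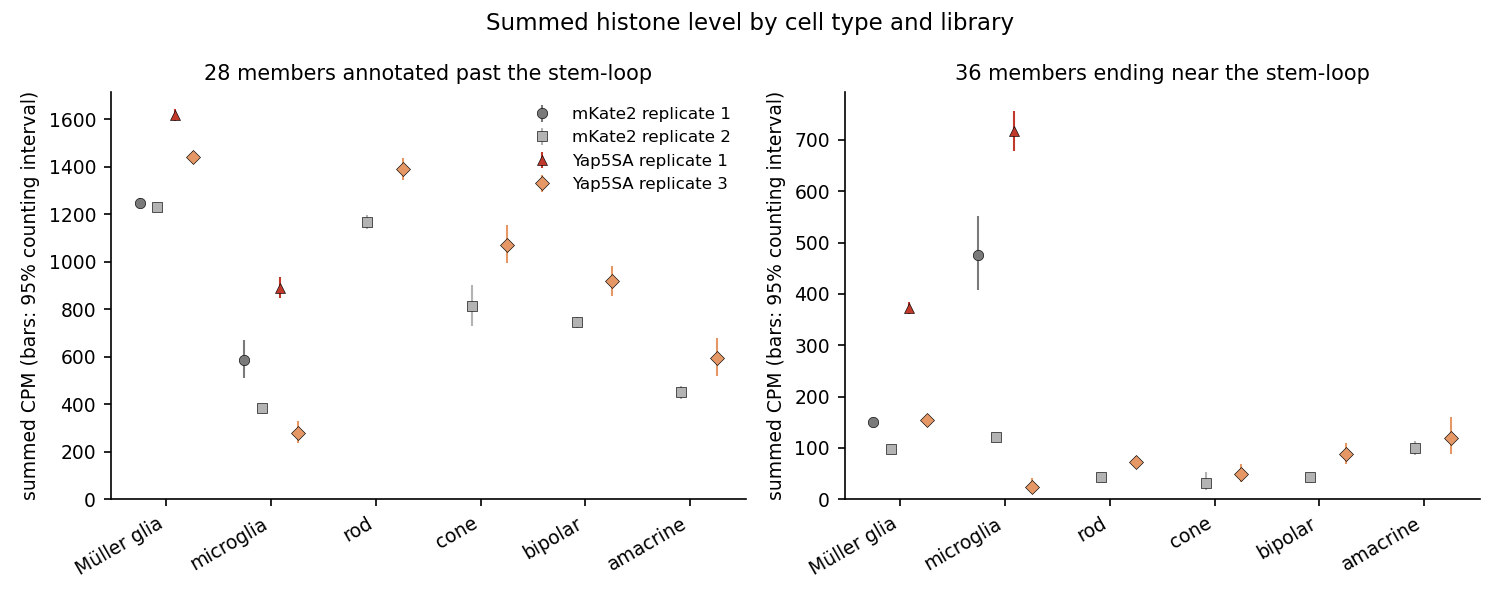
Summed level of extended members (left) and short members (right), in CPM, by cell type, with 1 point per library and exact Poisson 95% intervals, which cover counting error only; rods, cones, bipolar and amacrine cells were numerous enough in 2 libraries. Short members reach 372 CPM in MG and 716 CPM in microglia of *Yap5SA* replicate 1 (red), and extended members stand at 1231 to 1619 CPM in MG.

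Microglia, the immune cells of the retina, were compared with MG of the same 4 libraries, with the library as a block. *H2bc27*, *H2bc4* and *H2ac25*, which lead in MG, were lower in microglia, while *H3c3*, *H1f5* and several H2A genes were higher. Of 50 members tested, 11 were higher in microglia and 9 lower at an adjusted p under 0.05 in edgeR's quasi-likelihood test, and 20.8% and 29% of 14316 genes were (49.8% in either direction). The number higher was 5 without *Yap5SA* replicate 1 and 7 without either *mKate2* library. Of 22 short members tested 8 were higher and 1 lower, and of 25 extended members 2 were higher and 6 lower. The difference between the classes was not tested.

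The lower members included 3 of the 5 that lead in MG. *H2bc27* stood at 5.38, 5.23, 4.30 and 1.90 CPM in microglia of *mKate2* replicates 1 and 2 and *Yap5SA* replicates 1 and 3, against 122 to 190 CPM in MG, a log2 fold change of -4.62 ± 0.38 (SE; adjusted p = 2.81e-07, edgeR). *H2bc4* stood at 96.8, 75.6, 87.0 and 70.4 CPM against 403 to 527 CPM (-2.05 ± 0.27). *H2ac25* stood at 13.4, 19.6, 17.2 and 7.61 CPM against 54.5 to 101 CPM (-1.96 ± 0.38). For all 3 genes the ranges of the 2 cell types lay apart. The H4 genes *H4c9* (9.51 to 21.5 against 55.8 to 120 CPM, log2 fold change -2.12 ± 0.34) and *H4c8* (1.90 to 26.3 against 30.9 to 91.2 CPM, -1.91 ± 0.38) were lower as well. *H4c11* (0 to 1.07 against 2.30 to 12.3 CPM, -3.39 ± 0.85) and *H3c15* (0 to 1.90 against 1.85 to 3.77 CPM, -2.36 ± 0.93) held few UMIs in microglia. *H1f10* stood at 0, 1.12, 1.07 and 0 CPM against 6.48 to 21.0 CPM (-3.72 ± 0.63), and *H2bc21* at 1.87 to 2.69 against 9.18 to 12.8 CPM (-1.99 ± 0.53).

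The higher members were led by *H3c3*, a short H3 gene on chromosome 13, at 13.4, 13.3, 33.3 and 0 CPM in microglia against 0.168, 1.72, 0.623 and 0.255 CPM in MG (log2 fold change 4.72 ± 0.73, adjusted p = 0.000106, edgeR). The linker histone gene *H1f5* stood at 151, 14.4, 179 and 1.90 CPM against 6.73, 12.3, 10.1 and 23.6 CPM (2.45 ± 0.90, adjusted p = 0.0357). Both were high in *mKate2* replicate 1 and *Yap5SA* replicate 1 and at or near 0 in *Yap5SA* replicate 3, where both were lower than in MG. Of the H2A genes, *H2ac4* stood at 32.3, 26.1, 44.6 and 0 CPM against 4.97 to 9.96 CPM (2.35 ± 0.66), and *H2ac8* at 26.9, 20.0, 75.2 and 7.61 CPM against 5.47 to 13.8 CPM (2.25 ± 0.41). *H2ac22* stood at 29.6, 2.61, 18.3 and 0 CPM against 1.13 to 3.95 CPM (2.32 ± 0.74). *H2ac24*, from the leading genes, stood at 91.4, 5.04, 123 and 5.70 CPM against 13.8, 2.91, 47.4 and 9.06 CPM (1.69 ± 0.42). In 5 of these 6 genes *Yap5SA* replicate 3, with 64 microglia, was the lowest library. In that library *H2ac4* and *H2ac22* (9.96 and 3.32 CPM in MG) and *H2ac24* were also lower in microglia than in MG. *H2ac8* was not, at 7.61 against 7.02 CPM. *H2ac20* (7.66 to 30.6 against 4.85 to 9.87 CPM, 1.57 ± 0.40) and *H1f2* (38.0 to 99.5 against 28.6 to 54.5 CPM, 1.22 ± 0.32) were higher too. *H2ac13* (1.90 to 13.4 against 0.861 to 5.19 CPM, 1.98 ± 0.62), *H2ac15* (0 to 15 against 0.915 to 4.78 CPM, 1.90 ± 0.65) and *H2bc14* (0 to 6.98 against 0.0842 to 3.01 CPM, 2.14 ± 0.84) were low in both cell types.

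The higher calls rested on a small number of cells. At least 3 of the 7 cell cycle markers were detected in 46 of 1128 microglia (4.08%), which were 2, 33, 10 and 1 cells in the libraries in the same order. Without these cells and the 2 such MG, 0 of 44 members tested were higher in microglia, while 20.7% of 14262 genes were, and 14 were lower, while 28.9% of genes were. Of the 11 higher members, 8 were still tested, and 2 of them had a negative log2 fold change (*H1f5* -0.74 and *H2ac4* -1.15). *H1f2* just missed the threshold on the higher side (0.76 ± 0.31, adjusted p = 0.0543, edgeR). *H3c3*, *H2bc14* and *H2ac15* no longer passed the filter. Of the 9 lower members 8 stayed lower, and *H3c15* just missed the threshold (adjusted p = 0.0506, edgeR). The summed level of all members in microglia was 1094, 510, 1630 and 308 CPM with these cells and 437, 318, 770 and 293 CPM without them, below that of MG in every library.

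**Figure D3:**
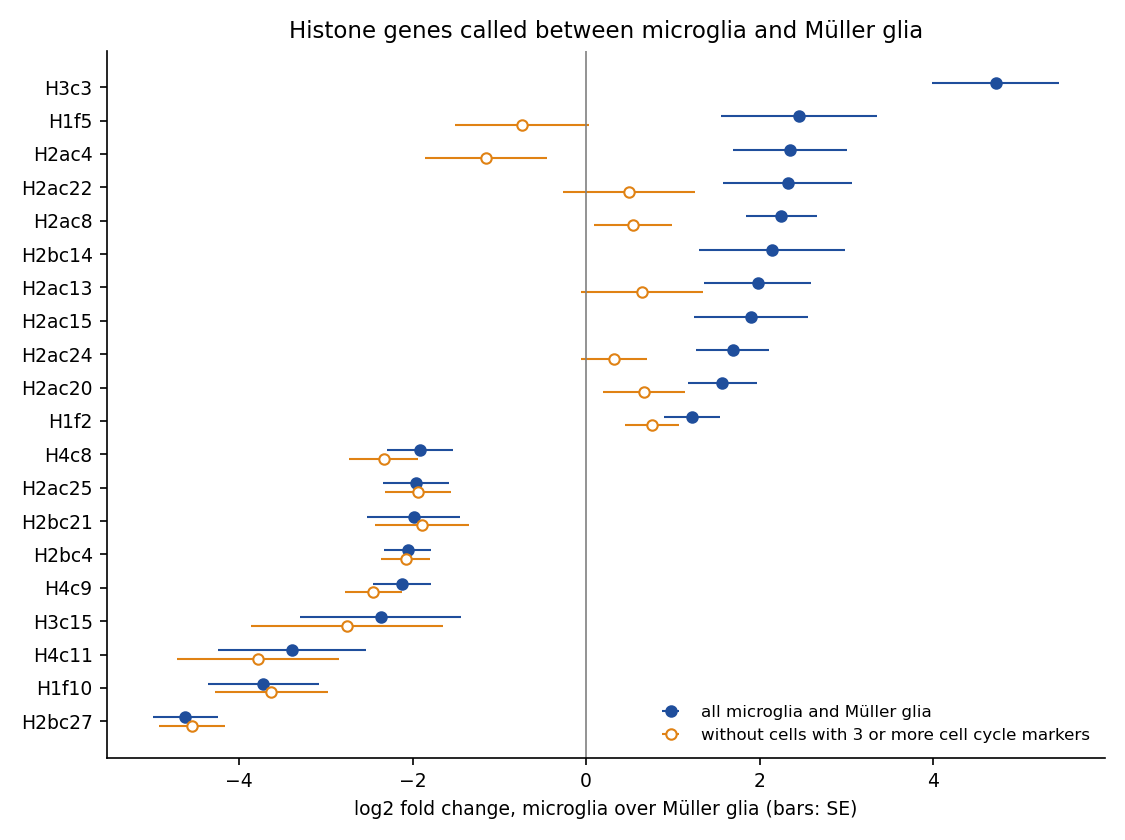
Log2 fold change, microglia over MG, with its SE, for the 20 called members (filled, all cells; open, without cells that hold at least 3 cell cycle markers). The 11 higher members move toward or past 0 without those cells, or are no longer tested, and the 9 lower members stay between -1.89 and -4.54.

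Other lists differed between microglia and MG too. Of the S phase and cell cycle genes 12 of 21 were higher, led by *Mki67* (log2 fold change 6.61 ± 0.83) and *Birc5* (6.15 ± 0.47), and 1 was lower, *Stmn1* (-1.57 ± 0.38). Without cells holding at least 3 of the markers, 6 of 14 were higher and 1 lower. All 7 markers belong to this list, so part of that fall was fixed by the choice of cells. Of the processing genes 4 of 14 were higher and 0 lower. They were *Lsm10* (1.67 ± 0.36) and *Lsm11* (2.18 ± 0.62), subunits of the U7 particle that guides the cut after the stem-loop, *Eri1* (1.64 ± 0.32), an exonuclease that trims histone mRNA ends, and *Tut7* (1.63 ± 0.30), a uridyltransferase. Of the replication-independent histones 4 of 11 were higher, among them *Cenpa* (3.02 ± 0.49) and *H2az1* (1.58 ± 0.27), and 4 were lower, among them *H1f10* and *H2az2* (-1.67 ± 0.32).

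Microglia with at least 3 cell cycle markers held many more histone UMIs than those with none. In *mKate2* replicate 2 the level of all members was 5333 CPM (95% exact Poisson interval 5021 to 5659, 33 cells) against 306 CPM (290 to 323, 805 cells), a ratio of 17.4. In *Yap5SA* replicate 1 it was 9615 CPM (9169 to 10077, 10 cells) against 898 CPM (838 to 961, 86 cells), a ratio of 10.7. With at least 2 markers in place of 3, the level there was 5250 CPM (17 cells) for all members and 2809 CPM for short members, and in *mKate2* replicate 2 it was 4366 CPM (42 cells). *mKate2* replicate 1 had 2 such cells, at 14900 CPM against 474 CPM, and *Yap5SA* replicate 3 had 1, at 1053 CPM against 296 CPM. The intervals cover counting error only, and the cells were chosen by markers that are not members, so no test across cells was made. Marked cells were deeper, with median UMIs of 5152 against 3846 in *mKate2* replicate 2 and 18451.5 against 9657 in *Yap5SA* replicate 1, and the part of depth in their choice was not tested.

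Short members differed most. Their ratio between marked and unmarked microglia was 122 in *mKate2* replicate 2 (2474 against 20.2 CPM) and 19.6 in *Yap5SA* replicate 1 (5285 against 269 CPM). For extended members it was 9.96 (2815 against 283 CPM) and 6.80 (4181 against 615 CPM). The single marked cell of *Yap5SA* replicate 3 held 0 UMIs of short members among its 10447 and 11 of extended members. Microglia with 1 or 2 markers were above those with none in *mKate2* replicate 2, at 62.4 against 20.2 CPM for short members and 385 against 306 CPM for all members. In *Yap5SA* replicate 1 they were below them, at 169 against 269 CPM and 612 against 898 CPM.

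A member was counted as higher only with at least 3 UMIs in the marked cells of each library. In both *mKate2* replicate 2 and *Yap5SA* replicate 1, 29 of the 64 members seen were at least 2-fold higher in marked microglia. The share among 18986 genes was 3.03%. The 29 members were 18 of the 36 short ones, 10 of the 28 extended ones and *H2ac22*. Those class sizes include *H2ac19*, *H2bc26-ps* and *H2bc23*, which held 0 UMIs in these cells. *H1f5* had 73 UMIs in the 33 marked cells of *mKate2* replicate 2 and 2 UMIs in the 805 unmarked ones, and *H3c3* had 69 and 0. *H2ac4* stood at 634 against 1.15 CPM there and at 425 against 5.38 CPM in *Yap5SA* replicate 1. *H4c4*, which is among the members that lead in MG, was high in them as well, at 912 against 41.4 CPM and 348 against 64.6 CPM. *H2bc4*, the highest member in MG, stood nearly level at 112 against 81.0 CPM and 105 against 104 CPM. *H2bc27* stood at 4.88 against 5.06 CPM in *mKate2* replicate 2, from 1 and 22 UMIs.

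**Figure D4:**
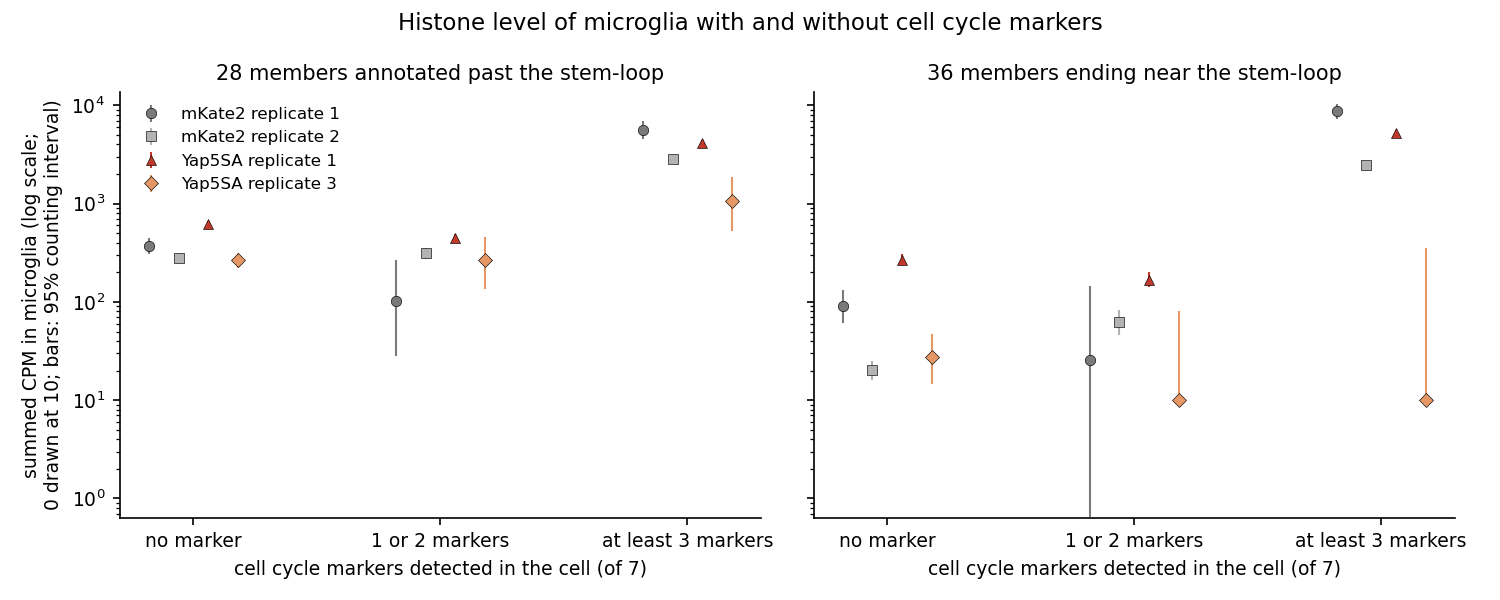
Summed level of extended members (left) and short members (right) in microglia, in CPM on a log scale, by the number of the 7 cell cycle markers detected in the cell, with 1 point per library and exact Poisson 95% intervals (0 drawn at 10 CPM). Cells with at least 3 markers stand above the rest in 3 libraries for short members, at 2474 to 8692 CPM, and the 1 such cell of *Yap5SA* replicate 3 has no short member UMI.

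Rods, the photoreceptors that are postmitotic, could be compared with MG in 2 libraries, 1 of each AAV. Of 40 members tested 4 were higher in rods and 14 lower, where 25% and 33.3% of 14452 genes were (58.3% in either direction, edgeR). The highest member of MG, *H2bc4*, was also the highest in rods, at 628 CPM in *mKate2* replicate 2 and 454 CPM in *Yap5SA* replicate 3, against 403 and 460 CPM in MG, and was not called. The lower members were led by *H1f5* (0.192 and 0 against 12.3 and 23.6 CPM, log2 fold change -6.88 ± 0.73) and *H1f10* (0.192 and 0.412 against 21.0 and 14.2 CPM, -6.19 ± 0.64). The linker histone *H1f4* stood at 69.5 and 136 against 210 and 234 CPM (-1.29 ± 0.27), and *H1f3* at 5.19 and 7.83 against 12.4 and 13.5 CPM (-1.14 ± 0.39). Neither of the other linker genes tested, *H1f1* and *H1f2*, was called.

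Core histone genes of the same comparison went both ways. *H2ac24* (0.384 and 0 against 2.91 and 9.06 CPM, -4.22 ± 0.94), *H2ac20* (0.768 and 0 against 6.08 and 4.85 CPM, -3.65 ± 0.81), *H2bc21* (0.768 and 1.65 against 12.8 and 11.4 CPM, -3.59 ± 0.57) and *H2bc27* (33.4 and 47.0 against 122 and 146 CPM, -1.86 ± 0.22) were lower. *H4c9* (26.7 and 12.8 against 66.4 and 79.7 CPM, -2.0 ± 0.29) and *H4c8* (12.7 and 18.1 against 30.9 and 42.1 CPM, -1.36 ± 0.26) were lower too. So were *H4c11* (0.384 and 0 against 3.34 and 2.30 CPM, -3.66 ± 0.98), *H2bc7* (0.192 and 0.412 against 2.31 and 3.70 CPM, -3.43 ± 0.93), *H3c11* (0.192 and 0.412 against 2.31 and 3.19 CPM, -3.34 ± 0.94) and *H3c1* (2.31 and 2.47 against 4.73 and 8.17 CPM, -1.44 ± 0.53).

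The higher members in rods were *H4c3* (28.2 and 122 against 13.6 and 28.6 CPM, 1.48 ± 0.30), *H2ac8* (13.8 and 16.1 against 5.65 and 7.02 CPM, 1.14 ± 0.36), *H3c15* (16.7 and 12.8 against 3.77 and 3.70 CPM, 1.87 ± 0.40) and *H3c14* (17.9 and 4.94 against 4.30 and 3.70 CPM, 1.29 ± 0.49). All 4 were extended, and *H3c14* and *H3c15* are a pair whose ends are identical. Each called short member, 7 of 14 tested, was lower in rods. Lower in rods and lower in microglia were 6 members, *H1f10*, *H2bc21*, *H2bc27*, *H4c8*, *H4c9* and *H4c11*, but both comparisons share the MG libraries. Of the other lists, 1 of 11 replication-independent histones was higher and 6 lower, 6 of 15 processing genes higher and 2 lower, and 2 of 14 S phase genes higher and 4 lower.

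Whether the difference between AAV groups itself differed between microglia and MG was tested as an interaction. Of 61 members tested, 0 were called in edgeR's quasi-likelihood test, as were 4 of 16085 genes (0.0249%), and 1 member had an unadjusted p under 0.05, *H2ac6*, named after its value was seen.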

How the data were processed

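Cells of tdTomato+ sorted retinas were profiled with 10x 3′ v3.1 chemistry on polyA RNA. The authors deposited UMI counts per gene and cell barcode from Cell Ranger, unnormalized, limited to called cells, on GRCm39. The labels name Cell Ranger 8.0.0 for all libraries, whereas the headers of *mKate2* replicate 2 and *Yap5SA* replicate 3 give 9.0.1.

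Cells with at least 1000 UMIs and at most 15% mitochondrial UMIs were kept. MG held at least 0.5% of UMIs in *Glul*, *Rlbp1*, *Slc1a3*, *Clu* and *Aqp4*, and cells outside that gate were typed by the summed share of the other types' markers (microglia and cones 0.5%, rods 1%, bipolar cells 0.5%, amacrine cells 0.1%), with cuts set after marker shares were seen. Of the MG 188 also passed another gate. No doublet caller was run, and 0 columns were left unmapped. Types with at least 20 cells in a library were used.

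Counts were summed per library and type and fitted with edgeR 4.0.16 (quasi-likelihood, filterByExpr, TMM, R 4.3.3) on all genes, with Benjamini-Hochberg adjustment over all genes tested, a threshold of 0.05 and an SE taken from the log2 fold change and F. DESeq2 1.42.0 was an alternative. The scripts were tested on simulated data. CPM was UMIs per 1000000 UMIs of the summed cells, intervals were exact Poisson, and limits by depth follow the UMIs given. Stem-loops were read with pysam 0.24.0 from GRCm39 and GENCODE vM39, which may differ from the authors' annotation, and promoters from RefSeq.

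The members and all lists were chosen with earlier results of these data known. So were the limit of 100 bases for extended members and of 3 cell cycle markers. Genes named with values in each library were members called in any comparison, the 4 leading genes, *H1f10*, and the 5 members with the most UMIs in MG. Genes of the other lists, and *H4c1* and *H3c8* for their loops, were named after their values were seen.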

Additional observations from a re-analysis of the deposited data

How the results depend on the processing

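With *Yap5SA* or *mKate2* AAV compared in MG, 0 members were called under every alternative run, as in the interaction. Members higher in microglia numbered 5 to 13 when each library was left out in turn (5 without *Yap5SA* replicate 1 and 7 without either *mKate2* library, against 11), and 0 without cells holding at least 3 cell cycle markers, an alternative chosen after seeing the data. Members lower in microglia numbered 7 to 12 without each library, 14 without those cells and 14 with no filter on low counts, against 9. In rods DESeq2 called 2 higher and 9 lower, against 4 and 14, and with 2 libraries none could be left out. The cause of these changes was not tested.

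Of the 10 members followed singly between AAVs, 4 changed sign under an alternative. With 1 library left out, *H1f10* (-0.13) ranged from -0.78 to 1.13 (without *mKate2* replicates 1 and 2), *H1f4* (-0.15) from -0.42 to 0.086 (without *Yap5SA* replicates 3 and 1), *H2bc27* (0.15) from -0.025 to 0.31 (without *Yap5SA* replicates 1 and 3) and *H4c4* (0.02) from -0.19 to 0.28 (without *mKate2* replicates 1 and 2), with -0.13 without *Yap5SA* replicate 3. *H1f10* became 0.16 with the Cell Ranger version as a term, and *H4c4* -0.0038 with a glial share of at least 1%. In microglia *H1f5* became -0.74 and *H2ac4* -1.15 without cells holding at least 3 markers. For single named members, 214 values in microglia kept call and direction and 36 lost the call, and in rods 135 and 9. Summed levels in MG ranged from 1364 to 1416 CPM (*mKate2*) and 1624 to 2020 CPM (*Yap5SA*) when 1 library was left out. Unthinned, the shares of MG with a member UMI were 94.1%, 90.9%, 97.0% and 92.5%. With at least 2 markers in place of 3, also chosen after seeing the data, marked microglia stood at 4366 and 5250 CPM in place of 5333 and 9615 CPM.

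No paired analysis was possible because the libraries used share only replicate number 1 between the groups. A fit with the Cell Ranger version as a term, which sets 1 library of each group in each version, called 0 members. It had 9 members and 151 genes at an unadjusted p under 0.05 (edgeR), against 3 and 30 without the term. These counts too are descriptions, since the members were picked with this difference in view. Members under a few CPM rest on few UMIs in microglia and rods, and smaller differences there were not detectable at this depth.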

Other observations

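Amacrine, bipolar and cone cells were held in numbers by *mKate2* replicate 2 and *Yap5SA* replicate 3 and, with 1 library per AAV, were not tested. The members that lead in MG were ordered differently in these neurons. *H2bc4* stood at 24.8 and 20.8 CPM in amacrine cells, at 129 and 141 CPM in bipolar cells and at 248 and 233 CPM in cones, whereas *H4c4* stood at 149 and 213, 123 and 145, and 108 and 133 CPM in the same order. *H2ac25* stood at 126 and 222 CPM in cones and at 32.1 and 44.2 CPM in amacrine cells, and *H2bc27* at 149 and 195 CPM in bipolar cells and 61.2 and 85.8 CPM in amacrine cells. *H1f10* stood at 33.4 and 54.6 CPM in amacrine cells (77 and 21 UMIs), at 2.29 and 1.10 CPM in bipolar cells and at 0 in cones, beside 6.48 to 21.0 CPM in MG.

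The 2 MG with at least 3 cell cycle markers, both in *mKate2* replicate 2, held 175 member UMIs of 32455, which is 5392 CPM (95% exact Poisson interval 4623 to 6253), and 1379 CPM was found in the 2819 MG of that library with no marker. Short members stood at 2188 CPM in those 2 cells and at 93.3 CPM in the others.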
